A study of Mus musculus with 24 samples.

Results

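Neurog1, Neurog2, Neurod1, Neurod2, Neurod6 and Bhlhe22 encode neurogenic basic helix-loop-helix (bHLH) transcription factors, and their RNA levels were followed in 3 kinds of cortical projection neuron at 4 stages of mouse development. The genes were taken by name from the deposited expression table and make up 6 of its 32310 entries. Callosal projection neurons send axons to the opposite hemisphere. Subcerebral ones project to targets below the cerebrum such as the spinal cord, and corticothalamic ones to the thalamus. Cells of each subtype were purified by fluorescence-activated sorting from CD1 mice, an outbred laboratory strain, at embryonic day 15 (E15), E16, E18 and postnatal day 1 (P1). The labels describe the 12 groups by strain, stage and subtype alone and name no genotype or treatment; each group has 2 libraries. The labels used here state neither the sort markers nor whether both libraries of a group stem from different animals.

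The table holds 1 pooled value per group, so each level below stands alone, with no SD and no n, and the read depth behind it is unknown. Its values were taken as FPKM, in which a gene's fragments are divided by transcript length and by library size. The labels were checked against 1 or 2 markers of each subtype. At every stage Cux2 was highest in callosal neurons (59.1 to 104 FPKM), Bcl11b and Fezf2 in subcerebral neurons (Bcl11b 104 to 168 FPKM, Fezf2 127 to 366 FPKM), and Tle4 and Foxp2 in corticothalamic neurons (Tle4 192 to 212 FPKM, Foxp2 27.3 to 41.5 FPKM). The markers were not confined to 1 subtype. Bcl11b and Fezf2 together summed to 97.9 to 222 FPKM in corticothalamic and 10.9 to 72.8 FPKM in callosal neurons. Tle4 and Foxp2 together summed to 75.1 FPKM in subcerebral neurons at E15, and to 28.6, 18.3 and 19.9 FPKM at E16, E18 and P1. If the sort used products of these genes, the check follows from the sort.

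Neurogenic bHLH factors pair with ubiquitous E proteins and bind short DNA motifs called E-boxes. In the embryonic cortex the proneural factor Neurog2 starts glutamatergic neurogenesis in progenitors, the Neurod factors act in newborn and maturing neurons, and Bhlhe22 is a repressor that works with Prdm8 in postmitotic neurons. Id proteins block the family by capturing E proteins, and Hes and Hey proteins repress proneural genes downstream of Notch.

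The upstream sequences of Neurog2, Neurod1, Neurod2 and Neurod6 are shown because differences between stages or subtypes were called for all 4 genes and E-boxes are the sites this family reads. They are the 250 bases before the annotated start of each gene, written 5′ to 3′ on the gene's own strand, from RefSeq promoters on GRCm38.p6. Capitals mark every E-box (CANNTG, which covers both strands since its reverse complement has the same form).
Neurog2, chr3:127632886-127633135, plus strand: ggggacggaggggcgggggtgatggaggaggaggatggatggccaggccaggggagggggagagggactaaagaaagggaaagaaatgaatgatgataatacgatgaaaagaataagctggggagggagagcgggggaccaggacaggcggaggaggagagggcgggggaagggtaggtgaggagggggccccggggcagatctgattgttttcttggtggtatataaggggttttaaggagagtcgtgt
Neurod1, chr2:79456637-79456886, minus strand: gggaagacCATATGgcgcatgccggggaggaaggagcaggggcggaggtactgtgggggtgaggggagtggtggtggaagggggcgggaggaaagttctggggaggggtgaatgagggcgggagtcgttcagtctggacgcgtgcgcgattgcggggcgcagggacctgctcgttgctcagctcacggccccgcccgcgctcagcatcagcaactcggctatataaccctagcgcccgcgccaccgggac
Neurod2, chr11:98329646-98329895, minus strand: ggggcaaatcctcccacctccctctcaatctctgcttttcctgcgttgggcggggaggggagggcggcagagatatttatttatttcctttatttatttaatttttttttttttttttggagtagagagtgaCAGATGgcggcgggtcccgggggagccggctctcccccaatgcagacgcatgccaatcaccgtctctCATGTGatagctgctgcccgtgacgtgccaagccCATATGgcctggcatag
Neurod6, chr6:55681264-55681513, minus strand: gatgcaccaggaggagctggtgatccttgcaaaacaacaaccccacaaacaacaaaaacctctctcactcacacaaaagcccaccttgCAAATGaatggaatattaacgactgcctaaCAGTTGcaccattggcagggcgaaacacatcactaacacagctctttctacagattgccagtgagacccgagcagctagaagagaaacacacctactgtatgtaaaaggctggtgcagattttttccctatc

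The Neurod2 sequence held 3 E-boxes, 118, 51 and 17 bases before the start, the Neurod6 sequence 2, 162 and 132 bases before it, and the Neurod1 sequence 1, 242 bases before it. None was found in the Neurog2 sequence. Over the full window of 250 bases before to 50 bases after the start, an E-box of any kind was present in 4 of the 5 promoters with an entry (Bhlhe22 has none) and in 72.3% of all 32851 promoters of the table. The E-box CATATG stood in 2 of the 5, those of Neurod1 and Neurod2, against 3.91% of all promoters. CAGATG or its reverse complement CATCTG stood in 1 of the 5, that of Neurod2, against 17.2% of all, and CAGCTG in 0 of the 5 against 16.3%. A match describes the letters only; no binding was measured.

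The 6 genes spanned a wide range of abundance. By mean level over the 12 groups Neurod6 was the 75th, Neurod2 the 166th and Bhlhe22 the 552nd of the 32310 entries, while Neurod1, Neurog2 and Neurog1 stood at 8893rd, 10667th and 18187th. Neurog1, a proneural factor like Neurog2, was listed at 0.228, 0.0529, 0.0170 and 0 FPKM in callosal neurons at E15, E16, E18 and P1. In subcerebral neurons it was listed at 0.0772, 0.0386, 0 and 0 FPKM, and in corticothalamic neurons at 0.527, 0.0662, 0 and 0 FPKM. It stayed below 1 FPKM in all 12 groups, with its highest value at E15 in every subtype, and was too low to test.

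Neurog2 was highest at E15 in every subtype and highest in callosal neurons at every stage. Its level was 10.2, 6.43, 2.44 and 0.734 FPKM in callosal neurons at E15, E16, E18 and P1. It was 6.08, 1.18, 0.289 and 0.0702 FPKM in subcerebral neurons and 4.89, 2.42, 0.642 and 0.0545 FPKM in corticothalamic neurons. At P1 callosal neurons kept 7.17% of their E15 level, subcerebral neurons 1.15% and corticothalamic neurons 1.11%. The P1 values all lie below 1 FPKM at an unknown read depth, so the gaps between these percentages are uncertain. In bulk samples fewer cells with the transcript and less transcript per cell cannot be told apart.

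Neurod1, a factor of newborn neurons, was 14.5, 10.7, 9.44 and 6.19 FPKM in callosal neurons from E15 to P1. The levels were 4.08, 6.34, 6.70 and 5.23 FPKM in subcerebral neurons and 2.68, 2.67, 2.04 and 0.870 FPKM in corticothalamic neurons. The order of the subtypes was the same at all 4 stages, callosal above subcerebral above corticothalamic. The gap between callosal and subcerebral neurons was 3.55-fold at E15 and 1.18-fold at P1. Exons of Neurod1 overlap those of Cerkl, which reached at most 0.153 FPKM, and of the antisense RNA Gm26755; strand use in counting is not stated. The GENCODE M21 annotation showed no such overlap for the other 5 genes.

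Neurod2 and Neurod6, which act in differentiating and mature pyramidal neurons, were the most abundant of the family by mean level over the 12 groups. In subcerebral neurons, however, Bhlhe22 exceeded Neurod2 at E16, and Neurod2 and Neurod6 at E18 and P1. Neurod6 was 782, 625, 498 and 253 FPKM in callosal neurons from E15 to P1. The levels were 620, 370, 202 and 134 FPKM in subcerebral neurons and 496, 464, 370 and 184 FPKM in corticothalamic neurons. Its level was lower at each later stage in all 3 subtypes, and the callosal value was the highest at each stage.

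Neurod2 was 429, 324, 228 and 188 FPKM in callosal neurons from E15 to P1. The levels were 351, 225, 130 and 94.6 FPKM in subcerebral neurons and 337, 288, 297 and 295 FPKM in corticothalamic neurons. The subtypes were nearest at E15 and farthest apart at P1, where corticothalamic neurons kept 87.6% of the E15 level, callosal neurons 43.8% and subcerebral neurons 26.9%. Callosal neurons had the highest Neurod2 at E15 and E16, and corticothalamic neurons at E18 and P1.

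Bhlhe22 was far lower in corticothalamic neurons than in the other subtypes. It was 127, 267, 291 and 168 FPKM in subcerebral neurons from E15 to P1, and 126, 104, 112 and 71.2 FPKM in callosal neurons. In corticothalamic neurons it was 12.9, 16.4, 18.2 and 6.18 FPKM, below every value of the other subtypes. Subcerebral and callosal neurons were within 1.01-fold of each other at E15, and subcerebral neurons were 2.57-fold, 2.60-fold and 2.36-fold higher at E16, E18 and P1. Over corticothalamic neurons the subcerebral level was 9.87-fold higher at E15 and 27.2-fold higher at P1.

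**Figure D1:**
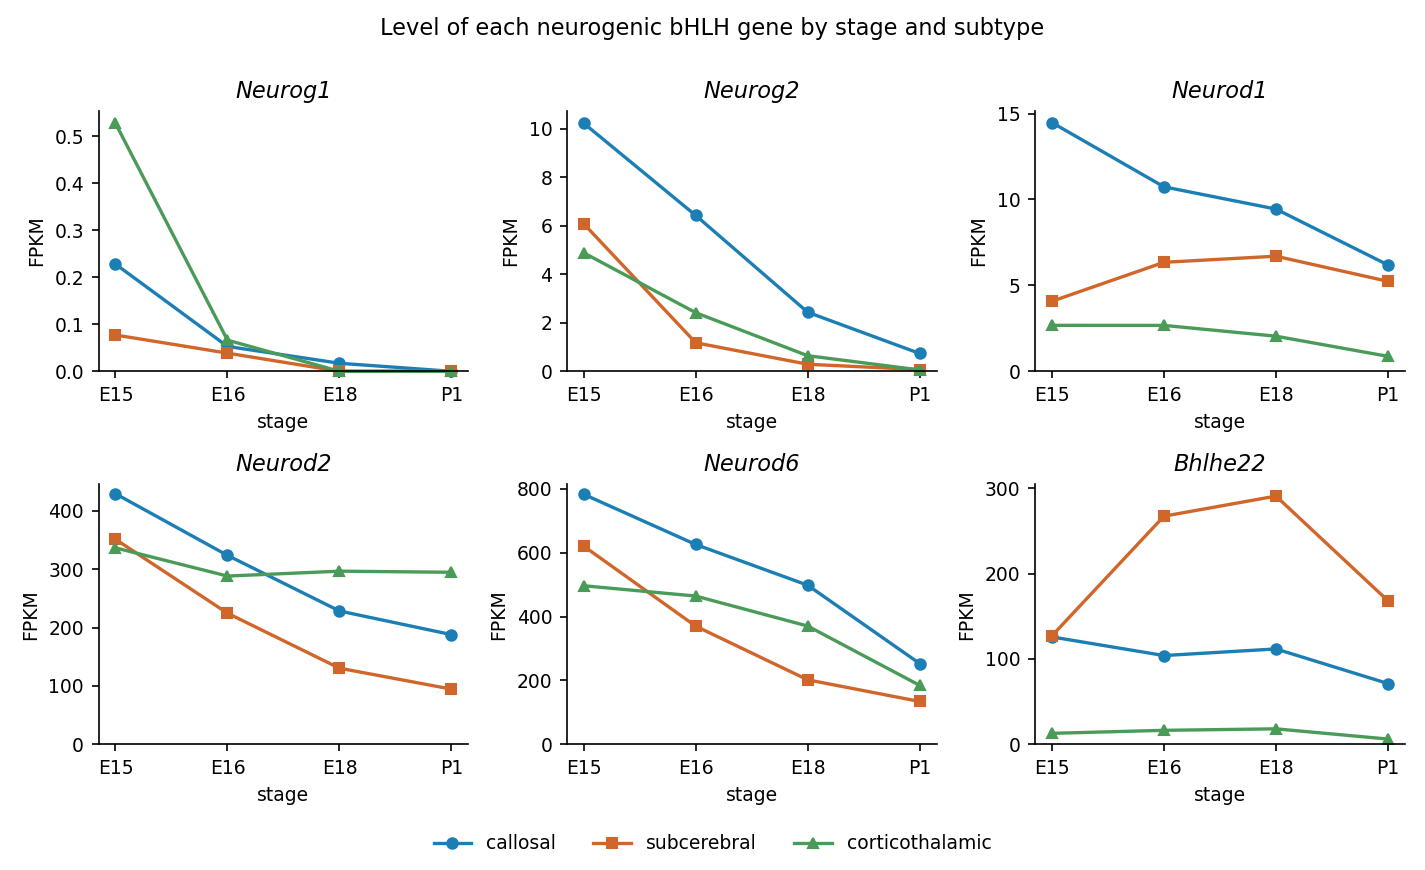
Level of each of the 6 genes in FPKM (vertical axis, linear, its own scale in each panel) at E15, E16, E18 and P1 (horizontal axis) in callosal, subcerebral and corticothalamic neurons (colours). Each point is the pooled value of 1 group, with no error bar since there is 1 value per group; the corticothalamic line of Neurod2 stays between 288 and 337 FPKM while the other Neurod2 lines descend.

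Differences between subtypes were tested with limma on log2(FPKM + 1) in a model with additive stage and subtype terms. The 4 stages served in place of replicates, so each p-value reflects the evenness of a difference across stages and not the spread between libraries. Of the 6 genes, 5 reached 1 FPKM in at least 2 groups and were tested among 13946 genes, and an adjusted p under 0.05 was called.

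On average over stages, callosal neurons had more Neurog2, Neurod6 and Neurod1 and less Bhlhe22 than subcerebral neurons. These are 4 of the 5 tested genes, 3 higher and 1 lower, where 29.3% of all tested genes were called (14.1% higher, 15.2% lower). The log2 difference was 1.14 ± 0.18 (SE) for Neurog2 (limma adjusted p = 0.00329), 0.82 ± 0.16 for Neurod6 (limma adjusted p = 0.00802), 0.73 ± 0.21 for Neurod1 (limma adjusted p = 0.0316) and -0.99 ± 0.23 for Bhlhe22 (limma adjusted p = 0.0162). Neurod2 differed by 0.65 ± 0.24, callosal higher at all 4 stages, and was not called (limma adjusted p = 0.0694); it passed in 4 of 21 alternatives, among them without E15 (adjusted p = 0.0233). The median over the 5 genes was 0.73, against -0.01 over all tested genes. The Neurog2 call was kept in all 21 alternatives, and with a pseudocount of 0.1 its difference was 2.02. The Bhlhe22 call was lost without E16 (adjusted p = 0.113), E18 (0.119) or P1 (0.0597) and without 5 of the 12 single values (0.0568 to 0.0626). The Neurod6 call was lost without E16 (0.0627), E18 (0.0525) or P1 (0.0528). The Neurod1 call was lost without E16 (0.133) or E18 (0.110), without 7 of the 12 single values (0.0508 to 0.0847), with a pseudocount of 0.1 (0.0518) and with no filter on low genes (0.0534).

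Against corticothalamic neurons, callosal neurons had more Bhlhe22, Neurod1 and Neurog2. These are 3 of the 5 tested genes, all higher, where 31.3% of all tested genes were called (15.3% higher, 16% lower). The log2 difference was 2.92 ± 0.23 for Bhlhe22 (limma adjusted p = 0.000101), 1.87 ± 0.21 for Neurod1 (limma adjusted p = 0.000447) and 0.96 ± 0.18 for Neurog2 (limma adjusted p = 0.00476). Neurod6 was higher in callosal neurons at all 4 stages and fell just short of the threshold (0.49 ± 0.16, limma adjusted p = 0.0501); it passed in 6 of 21 alternatives. Neurod2 differed by -0.13 ± 0.24 (limma adjusted p = 0.718), with values above corticothalamic neurons at E15 and E16 and below them at E18 and P1. The 3 calls were kept in all 21 alternatives, and with a pseudocount of 0.1 the Neurog2 difference was 1.66.

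On average over stages, subcerebral neurons had more Bhlhe22 and Neurod1 and less Neurod2 than corticothalamic neurons. These are 3 of the 5 tested genes, 2 higher and 1 lower, where 27.5% of all tested genes were called (14.7% higher, 12.8% lower). Bhlhe22 differed by 3.91 ± 0.23 (limma adjusted p = 0.000183), in absolute size the third largest difference among the 13946 tested genes. Neurod1 differed by 1.14 ± 0.21 (limma adjusted p = 0.00912) and Neurod2 by -0.78 ± 0.24 (limma adjusted p = 0.0420). The Neurod2 difference was not even over stages: it was 0.06 at E15, -0.36 at E16, -1.18 at E18 and -1.63 at P1. Neurod6 (-0.33 ± 0.16, limma adjusted p = 0.149) and Neurog2 (-0.18 ± 0.18, limma adjusted p = 0.468) were not called. Without E15 the Neurod6 difference was -0.55 (adjusted p = 0.00892), and without the subcerebral E15 value it was -0.52 (0.00874), both called. The Neurod1 call was lost without E16 (adjusted p = 0.0731), E18 (0.0951) or P1 (0.0523). The Neurod2 call was lost without E16 (0.116), E18 (0.227) or P1 (0.167), without 10 of the 12 single values (0.0503 to 0.137) and with no filter on low genes (0.0692).

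**Figure D2:**
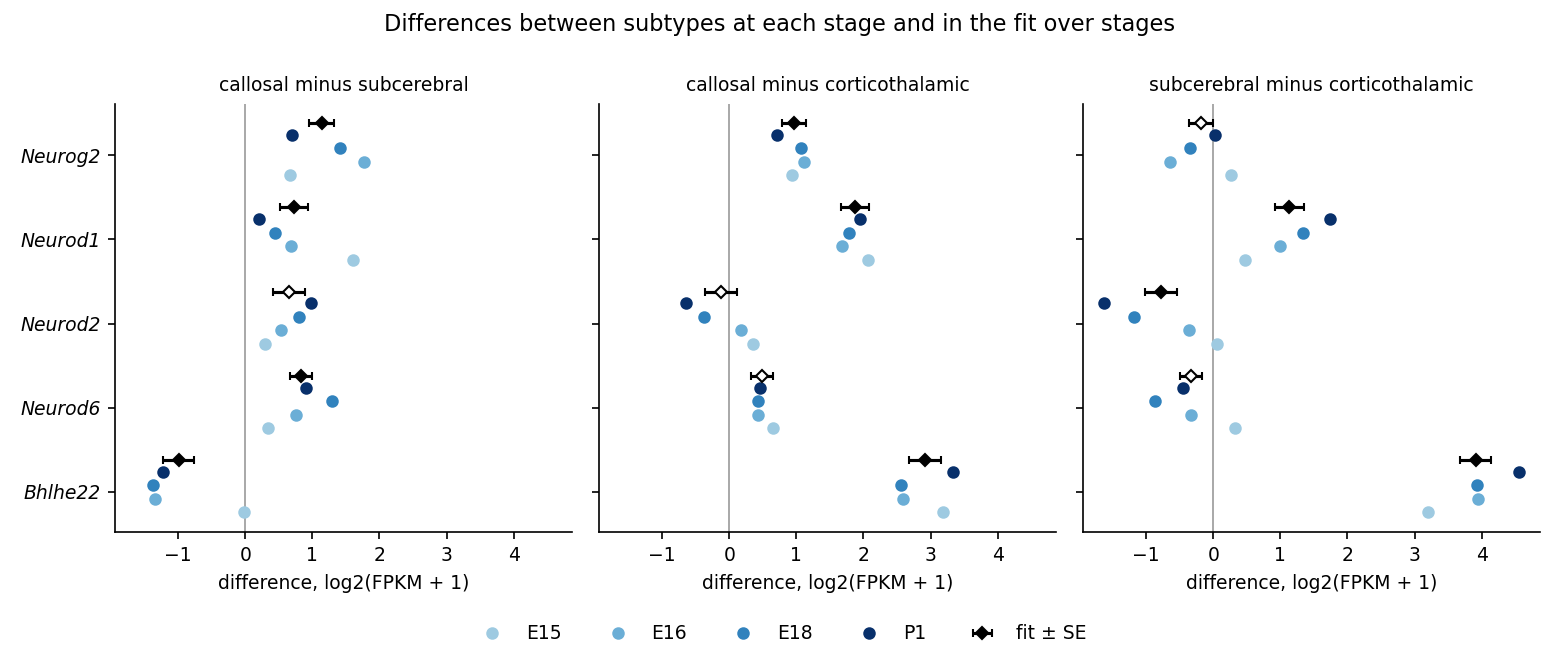
Difference in log2(FPKM + 1) (horizontal axis) between 2 subtypes for the 5 tested genes, in 3 panels, one for each pair of subtypes. Blue points are the differences at E15, E16, E18 and P1; diamonds with bars are the limma fit over stages ± SE, filled where the adjusted p is under 0.05, and Bhlhe22 lies farthest from 0 in both comparisons with corticothalamic neurons (2.92 and 3.91).

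RNA of other cells in the sorted samples was read from marker lists. Of 7 tested radial glia genes, 4 were higher and none lower in callosal than in subcerebral neurons, where 14.1% of all tested genes were higher, and 3 were higher and none lower against corticothalamic neurons, where 15.3% were higher. The 8 listed radial glia genes summed to 28.1 to 72.3 FPKM in callosal, 22.4 to 59.0 FPKM in subcerebral and 19.1 to 69.4 FPKM in corticothalamic neurons, highest at E15 in each. Of 5 tested cell cycle genes, 2 were higher and 0 lower in callosal than in subcerebral neurons, and 0 were called against corticothalamic neurons. Of 8 tested microglial genes, 7 were higher and none lower in callosal than in subcerebral neurons, and 7 were higher and 1 lower against corticothalamic neurons. The lower gene, named after its values were seen, was Aif1 (-0.57 ± 0.14, limma adjusted p = 0.0136). The 9 listed genes summed to 5.01 to 40.9 FPKM in callosal, 4.12 to 7.40 FPKM in subcerebral and 5.70 to 8.94 FPKM in corticothalamic neurons. No gene of these lists was at 0 in all 12 groups. The part of either cell type in the differences above was not tested.

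Changes with stage were tested in the same fit, with the 3 subtypes in place of replicates; a stage cannot be told apart from a collection or preparation shared by its groups. From E15 to P1 Neurog2, Neurod6 and Neurod2 fell. These are 3 of the 5 tested genes and 0 rose, where 67.4% of all tested genes were called (33.8% higher, 33.6% lower), so the count of called genes lies near the background. The log2 change was -2.63 ± 0.21 for Neurog2 (limma adjusted p = 1.8e-05), -1.75 ± 0.19 for Neurod6 (limma adjusted p = 7.88e-05) and -1.09 ± 0.27 for Neurod2 (limma adjusted p = 0.00729). Neurod1 differed by -0.59 ± 0.24 (limma adjusted p = 0.0551) and Bhlhe22 by -0.45 ± 0.27 (limma adjusted p = 0.166). With a pseudocount of 0.1 the Neurog2 change was -4.61. The Neurod2 call was lost without callosal (adjusted p = 0.0784) or subcerebral neurons (0.0749). Without subcerebral neurons, Neurod1 (-1.04, 0.00210) and Bhlhe22 (-0.88, 0.0242) were called, as they were without the subcerebral E15 value alone (-0.94, 0.00144, and -0.83, 0.00613).

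By interval, Neurog2 was the 1 called gene of the 5 from E15 to E16 (-1.03 ± 0.21, limma adjusted p = 0.0330; 5.16% of all tested genes called, 2.53% higher and 2.62% lower) and from E16 to E18 (-0.97 ± 0.21, limma adjusted p = 0.0398; 4.45% called, 2.83% higher and 1.61% lower). From E18 to P1, 3 of the 5 fell and 0 rose, where 40.2% of all tested genes were called (19.6% higher, 20.6% lower). These were Bhlhe22 (-0.95 ± 0.27, limma adjusted p = 0.0236), Neurod6 (-0.85 ± 0.19, limma adjusted p = 0.00787) and Neurog2 (-0.63 ± 0.21, limma adjusted p = 0.0392). Neurod1 (-0.51, limma adjusted p = 0.124) and Neurod2 (-0.25, limma adjusted p = 0.502) were not called there; Neurod1 passed in 3 of 20 alternatives. The interval calls of Neurog2 were lost in 13, 11 and 11 of 20 alternatives, among them no filter on low genes (adjusted p = 0.0532, 0.0666 and 0.0653), and with a pseudocount of 0.1 the later 2 changes were -1.61 and -1.69. Those of Neurod6 were lost without callosal (0.0925) or corticothalamic neurons (0.0699). Those of Bhlhe22 were lost without callosal (0.0534) or corticothalamic neurons (0.203), and without the corticothalamic E18 or P1, subcerebral E18 or callosal P1 value (0.0535 to 0.0913).

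Beside the fall of Neurog2, 6 of 7 tested radial glia genes fell from E15 to P1 and 0 rose, where 33.6% of all tested genes fell. Of the 10 listed cell cycle genes, only 5 were tested, and the others were too low to test. Among those tested 1 rose and 1 fell, with a median change of -0.14, where 33.8% of all tested genes rose. At E15, 5, 4 and 8 of the 10 listed genes were at 1 FPKM or more in callosal, subcerebral and corticothalamic neurons. At P1 there were 4 in each subtype. The 10 listed cell cycle genes summed to 50.4, 33.8 and 51.0 FPKM in callosal, subcerebral and corticothalamic neurons at E15. At P1 these sums were 54.2, 45.9 and 64.6 FPKM. Interneuron genes summed to 81.0 FPKM in callosal, 11.2 FPKM in subcerebral and 89.3 FPKM in corticothalamic neurons at E15, and to 398, 421 and 716 FPKM at P1. Of the 8 interneuron genes tested, 1 rose and 0 fell, with a median change of -0.65, where 33.8% of all tested genes rose and 33.6% fell. The gene that rose, named after its values were seen, was the neuropeptide gene Npy (4.38 ± 0.39, limma adjusted p = 3.28e-05), at 394, 415 and 687 FPKM of the P1 sums in callosal, subcerebral and corticothalamic neurons. The part of these cells in the stage changes was not tested.

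Whether a gene's course differed between subtypes was tested by fitting a slope over the 4 stages, in order, for each subtype. The slope of Neurod2 was -0.41 ± 0.05 log2 units per stage step in callosal neurons, -0.64 ± 0.05 in subcerebral neurons and -0.05 ± 0.05 in corticothalamic neurons. The slope was lower in callosal than in corticothalamic neurons by -0.35 ± 0.06 (limma adjusted p = 0.0495; 1 of 5 genes, 0.896% of all tested genes called, 0.617% higher and 0.28% lower) and in subcerebral than in corticothalamic neurons by -0.59 ± 0.06 (limma adjusted p = 0.0197; 1 of 5 genes, 1.08% called, 0.617% higher and 0.459% lower). Between callosal and subcerebral neurons 0 of the 5 slopes were called, and 2 had an unadjusted p under 0.05, where limma called 1.05% of all tested genes (0.495% higher, 0.552% lower); Neurod2 differed by 0.24 (limma adjusted p = 0.115) and Neurod1 by -0.44 (limma adjusted p = 0.145). The callosal against corticothalamic call of Neurod2 was lost in all 9 alternatives (adjusted p 0.0510 to 0.314), and the subcerebral against corticothalamic call when E15 (0.188), E16 (0.184), E18 (0.172) or P1 (0.0627) was left out. The difference in slope stayed between -0.64 and -0.57 in the 9 alternatives of the latter.

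The other 4 genes had no called difference in slope. Neurog2 had slopes of -0.92, -0.89 and -0.85 in callosal, subcerebral and corticothalamic neurons (each ± 0.13), and Neurod6 of -0.52, -0.75 and -0.46 (each ± 0.10). Neurod1 had a slope of 0.10 in subcerebral neurons, against -0.35 and -0.32 in callosal and corticothalamic neurons (each ± 0.10). Bhlhe22 had a slope of 0.13 in subcerebral neurons, against -0.23 and -0.27 (each ± 0.21). At P1 Neurod1 and Bhlhe22 were at 128% and 132% of the E15 level in subcerebral neurons and between 32.5% and 56.6% in the others; the differences in slope of these 2 genes did not pass the test, whose SE is wide for Bhlhe22.

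**Figure D3:**
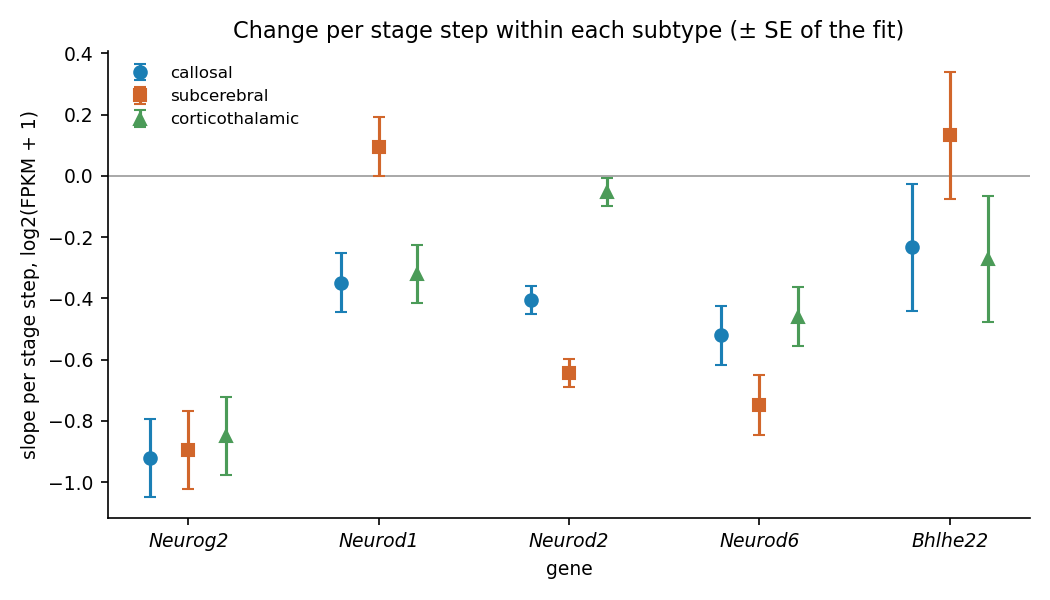
Slope per stage step in log2(FPKM + 1) (vertical axis) of the 5 tested genes in callosal, subcerebral and corticothalamic neurons (colours). Points are the fitted slopes and bars their SE; the corticothalamic slope of Neurod2 (-0.05) lies near 0 while the callosal (-0.41) and subcerebral (-0.64) slopes lie below it.

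The makeup of the family, as shares of its summed FPKM, differed by subtype and stage. Together the 6 genes summed to 1363 FPKM in callosal, 1109 FPKM in subcerebral and 854 FPKM in corticothalamic neurons at E15, and to 519, 402 and 486 FPKM at P1. Bhlhe22 made up 11.5%, 30.8%, 46.2% and 41.8% of the sum in subcerebral neurons from E15 to P1. In callosal neurons it made up 9.24% to 13.7%, and in corticothalamic neurons 1.27% to 2.64%. Neurod2 and Neurod6 made up 97.0% to 98.5% of the sum in corticothalamic neurons and 52.7% to 87.6% in subcerebral neurons.

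The ratio of Neurod6 to Neurod2 was above 1 in 11 of the 12 groups. It was 1.82, 1.93, 2.18 and 1.34 in callosal neurons from E15 to P1, and 1.77, 1.65, 1.55 and 1.42 in subcerebral neurons. In corticothalamic neurons it was 1.47, 1.61, 1.25 and 0.626, so that Neurod2 exceeded Neurod6 in corticothalamic neurons at P1. These shares and ratios are values without a test.

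**Figure D4:**
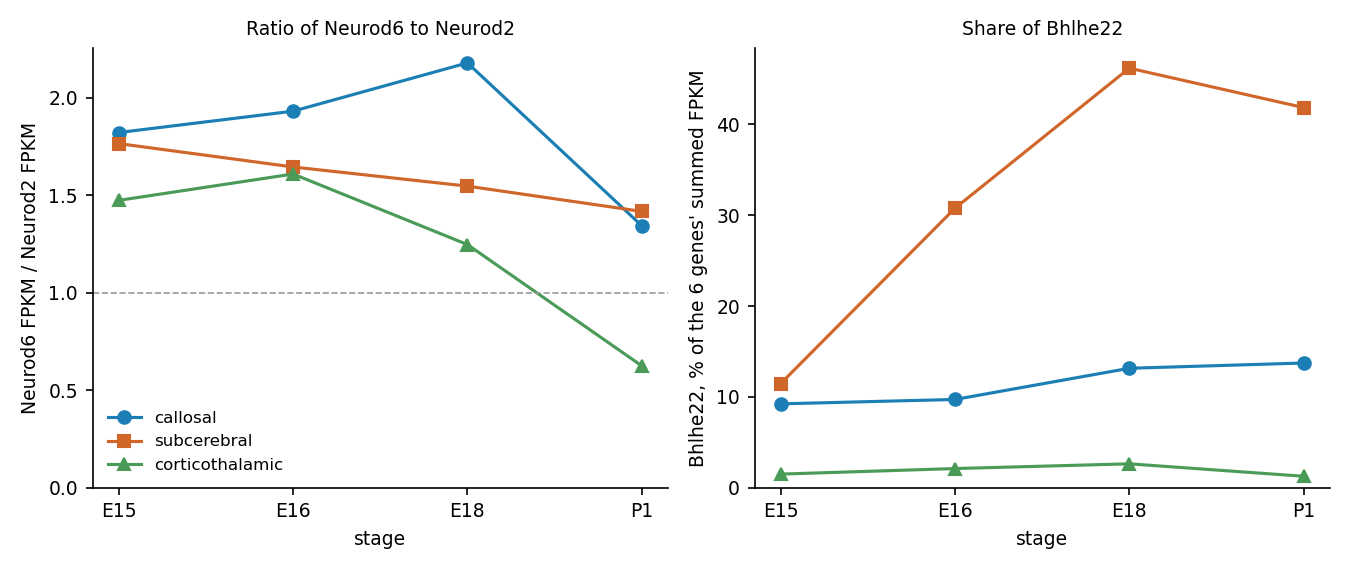
Left, the ratio of Neurod6 to Neurod2 FPKM (vertical axis; dashed line at 1) and right, Bhlhe22 as a percentage of the 6 genes' summed FPKM (vertical axis), both by stage (horizontal axis) and subtype (colours), 1 pooled value per point. The corticothalamic P1 ratio (0.626) is the 1 point below the dashed line, and the subcerebral share of Bhlhe22 reaches 46.2% at E18.

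Of the 3 E proteins, the dimer partners of the family, 2 were called higher in callosal neurons than in subcerebral and than in corticothalamic neurons. Over all tested genes, 14.1% and 15.3% were higher in these comparisons. Tcf12 was 30.5, 22.9, 13.8 and 10.5 FPKM in callosal neurons from E15 to P1, 6.01 to 9.89 FPKM in subcerebral and 3.93 to 6.96 FPKM in corticothalamic neurons. Its log2 difference was 1.18 ± 0.15 from subcerebral (limma adjusted p = 0.00136) and 1.52 ± 0.15 from corticothalamic neurons (limma adjusted p = 0.000252). Tcf4, the most abundant of the 3, ran from 129 to 183 FPKM in callosal, 51.2 to 110 FPKM in subcerebral and 72.7 to 96.4 FPKM in corticothalamic neurons. It differed by 1.09 ± 0.19 (limma adjusted p = 0.00556) and 0.82 ± 0.19 (limma adjusted p = 0.0145), calls lost in 1 of 21 alternatives each, at an adjusted p of 0.0524 and 0.0898. Tcf3 differed by 0.14 ± 0.08 (limma adjusted p = 0.229) and -0.06 ± 0.08 (limma adjusted p = 0.608). From E15 to P1 Tcf3 (-0.94 ± 0.10, limma adjusted p = 6.07e-05) and Tcf12 (-0.91 ± 0.18, limma adjusted p = 0.00188) fell, and Tcf4 was not called (-0.45 ± 0.22, limma adjusted p = 0.104).

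Of the 4 Id inhibitors, 3 were tested, and 0 were called between subtypes by limma. At an unadjusted p under 0.05 there were 1, 1 and 2 in the callosal against subcerebral, callosal against corticothalamic and subcerebral against corticothalamic comparisons. Over all tested genes, limma called 29.3%, 31.3% and 27.5% in these comparisons. With 3 genes, 0 calls cannot be told apart from those shares. Id2 was the most abundant, at 175 to 350 FPKM in callosal, 346 to 535 FPKM in subcerebral and 171 to 413 FPKM in corticothalamic neurons, and its E15 to P1 change was 0.20 ± 0.35 (limma adjusted p = 0.625). Id1 (-2.29 ± 0.23, limma adjusted p = 5.39e-05) and Id4 (-0.92 ± 0.24, limma adjusted p = 0.00814) fell from E15 to P1. Id3 reached at most 0.671 FPKM and was not tested.

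Of the 6 Hes and Hey repressors, 4 were tested. Against corticothalamic neurons 1 was higher and 1 lower in callosal neurons (15.3% and 16% of all tested genes), Hes6 (0.48 ± 0.05, limma adjusted p = 0.000402), which counters Hes1 and promotes neuronal differentiation, and Hey1 (-1.13 ± 0.11, limma adjusted p = 0.000234). Against subcerebral neurons 2 were higher and 1 lower in callosal neurons (14.1% and 15.2% of all). These were Hes5 (0.44, limma adjusted p = 0.0142), Hes6 (0.36, 0.00230) and Hey1 (-0.40, 0.0286). Subcerebral neurons had less Hey1 (-0.73, limma adjusted p = 0.00519) and Hes5 (-0.49, 0.0131) than corticothalamic neurons (12.8% of all lower). In the comparisons with subcerebral neurons the Hes5 calls were lost in 4 and 3 of 20 alternatives and the Hey1 calls in 9 and 2 of 21. With a pseudocount of 0.1 these Hes5 differences were 1.13 and -1.18. Hey1 was 7.31 to 22.0 FPKM in corticothalamic neurons, 3.03 to 9.09 FPKM in callosal and 4.66 to 12.5 FPKM in subcerebral neurons. From E15 to P1 Hey1 rose by 1.17 ± 0.13 (limma adjusted p = 8.72e-05) and Hes1 by 1.85 ± 0.57 (limma adjusted p = 0.0186, lost in 6 of 20 alternatives), and Hes5 fell (-0.50 ± 0.12, limma adjusted p = 0.00523; -1.10 with a pseudocount of 0.1). The 15 other neural bHLH factors listed were low: 4 were tested, and the 15 together summed to at most 16.3 FPKM in any group. Among them Nhlh2 was lower in callosal than in corticothalamic neurons (-0.95 ± 0.17, limma adjusted p = 0.00363; -2.33 with a pseudocount of 0.1).

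Genes of the Neurog2 cascade, a list of 17 targets and followers of Neurog2 such as the intermediate progenitor gene Eomes and the Notch ligand gene Dll1, fell with Neurog2: 14 of 16 tested genes fell from E15 to P1 and 0 rose, with a median of -1.34 against 0.00 over all tested genes, of which 33.6% fell. Dll1 fell by 2.53 ± 0.21 on the log2 scale (limma adjusted p = 2.13e-05), the zinc finger gene Insm1 by 2.26 ± 0.24 (limma adjusted p = 8.44e-05), and Eomes and the stress sensor gene Gadd45g each by 2.11; with a pseudocount of 0.1 the Eomes change was -4.30. Between subtypes the cascade did not share one direction. Of the 16 genes, 3 were higher and 0 lower in callosal than in subcerebral neurons, where 14.1% of all tested genes were higher and 15.2% lower. Against corticothalamic neurons 4 were higher and 5 lower in callosal neurons, where 15.3% of all tested genes were higher and 16% lower. In subcerebral neurons 2 were higher and 5 lower than in corticothalamic neurons, where 14.7% of all tested genes were higher and 12.8% lower. Insm1 was higher in callosal neurons by 1.45 ± 0.21 against corticothalamic neurons (limma adjusted p = 0.0016), while Tbr1, the deep-layer T-box factor downstream of Eomes, was lower (-1.67 ± 0.44, limma adjusted p = 0.0208, lost in 7 of 21 alternatives).

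Bhlhe22 was compared with Prdm8, its partner in repression, and Cdh11, a cadherin gene that the pair represses. Prdm8 was 79.2, 51.8, 38.9 and 53.8 FPKM in callosal neurons from E15 to P1, 14.2 to 39.4 FPKM in subcerebral and 7.16 to 37.4 FPKM in corticothalamic neurons. It was higher in callosal than in subcerebral neurons (1.00 ± 0.27, limma adjusted p = 0.0267, lost in 5 of 21 alternatives) and than in corticothalamic neurons (1.53 ± 0.27, limma adjusted p = 0.00392), and subcerebral and corticothalamic neurons differed by 0.53 ± 0.27 (limma adjusted p = 0.162). The subtype with the most Bhlhe22 was not the one with the most Prdm8. Cdh11 was highest in corticothalamic neurons, at 28.4 to 53.5 FPKM, next in subcerebral neurons, at 17.0 to 35.0 FPKM, and lowest in callosal neurons, at 11.9 to 14.0 FPKM. Callosal neurons, which had less Bhlhe22 than subcerebral neurons, also had less Cdh11 than these (-0.71 ± 0.17, limma adjusted p = 0.0175, lost in 4 of 21 alternatives). That Bhlhe22 call was lost in 8 of 21 alternatives. At E15 Bhlhe22 was alike in callosal and subcerebral neurons (126 and 127 FPKM). Cdh11 was lower in callosal (-1.54 ± 0.17, limma adjusted p = 0.000457) and in subcerebral neurons (-0.83 ± 0.17, limma adjusted p = 0.0134, lost in 4 of 21 alternatives) than in corticothalamic neurons, the subtype with the least Bhlhe22. Whether Bhlhe22 or Prdm8 acts on Cdh11 in these neurons was not tested.

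**Figure D5:**
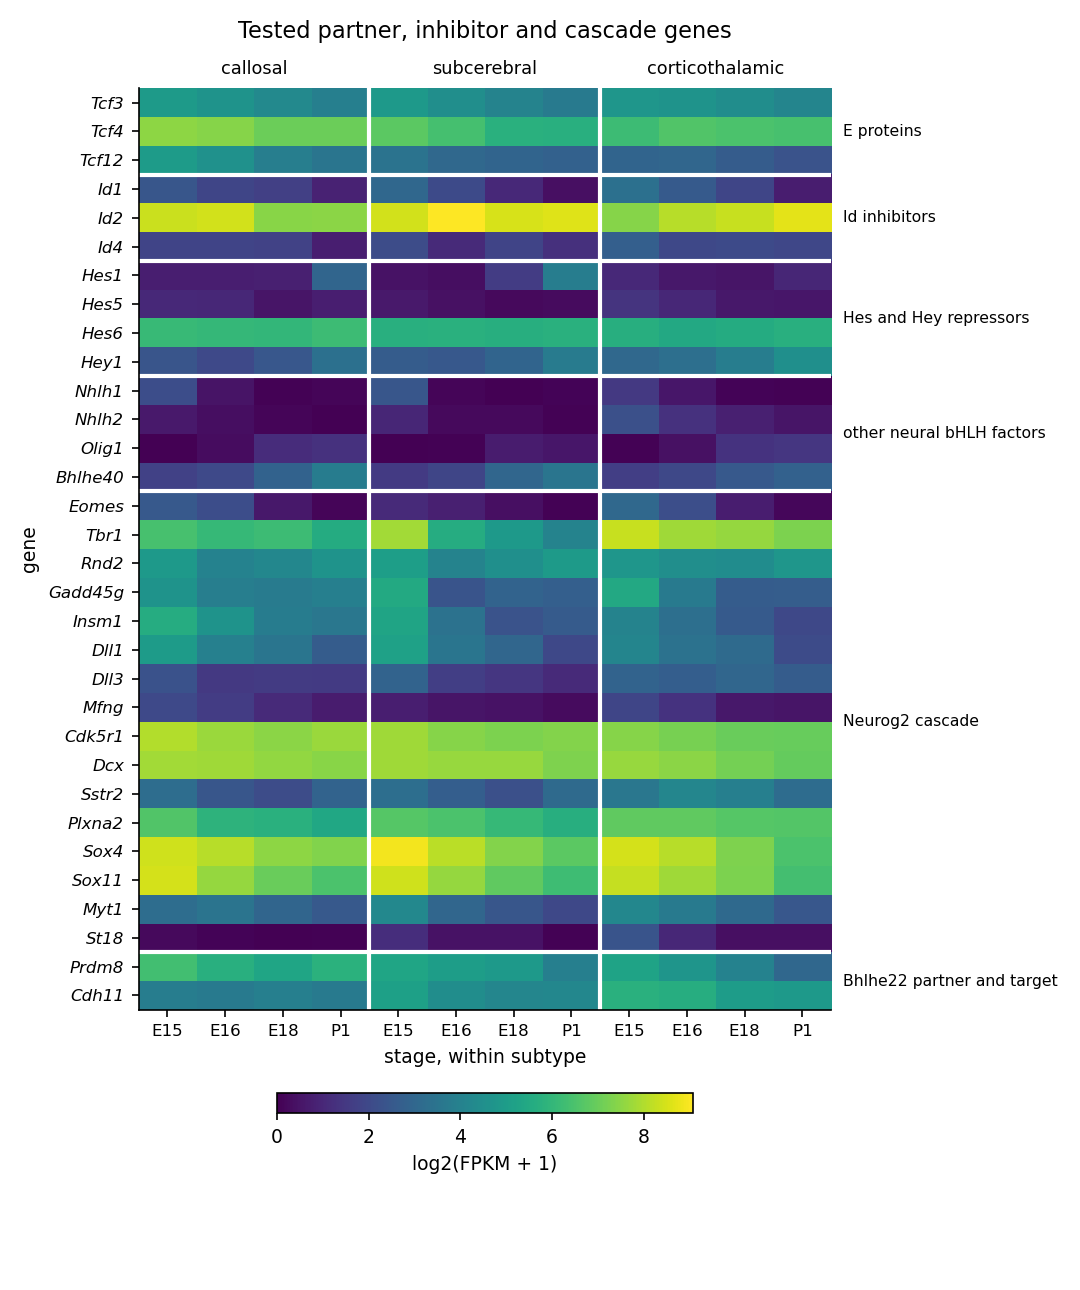
Level of the tested E protein, Id, Hes and Hey, other neural bHLH, Neurog2 cascade and Bhlhe22 partner and target genes as log2(FPKM + 1) (colour) in each gene (rows) and in the 12 groups ordered by subtype and stage (columns). Tcf12 and Prdm8 are brightest in the callosal columns and Cdh11 in the corticothalamic columns, and most cascade rows darken from E15 to P1.

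Across the 12 groups, which share subtypes and stages and are not independent, log2 levels of Neurog2 and Neurod6 had a Pearson correlation of 0.94, Neurod2 and Neurod6 of 0.82 and Neurod1 and Bhlhe22 of 0.79, while Neurod2 and Bhlhe22 had one of -0.44. Among 2501 named genes that reached 5 FPKM and varied by an SD of at least 0.5 on the log2 scale, the profile nearest to Neurog2 was that of Zswim5 (Pearson correlation of 0.98), then Homer3 and Slc38a2 (0.97 each). Nearest to Neurod2 were Igfbpl1 (0.99), Ncapd2 and Sorbs2 (0.95 each), with Igfbpl1 running from 8.74 FPKM in subcerebral neurons at P1 to 227 FPKM in callosal neurons at E15. Nearest to Neurod6 were Zfp184, Zfp146 and C130039O16Rik (0.98 each), and to Neurod1 Bzw2 (0.95), Tle1 (0.94) and Vgll4 (0.93). Nearest to Bhlhe22 were Btbd3 (0.96), 1810012P15Rik and Irs2 (0.94 each). With 12 values and the highest of 2501 correlations taken, these are descriptions of similar profiles.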

How the data were processed

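Poly(A)-selected RNA sequencing of sorted neurons was deposited as 1 table with 1 value per stage and subtype. Per the submitters' processing notes, the authors used TopHat2 and Cufflinks with the mouse build mm9; the notes used here state no versions, annotation, scaling, strand use or way of pooling 2 libraries into 1 value. With no unit in the header, the deposited numbers were taken for FPKM because of Cufflinks and because of column sums that ranged from 355965 to 473871. No counts are held, so depth is unknown and no counting interval can be given.

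Values were used as deposited. Genes reaching 1 FPKM in 2 or more of the 12 columns were kept (13946 of 32310), and log2(FPKM + 1), computed here from the deposited values, was fitted with limma 3.58.1 (R 4.3.3; trend and robust moderation, Benjamini-Hochberg adjustment over all tested genes, threshold 0.05). The model had additive stage and subtype terms, or a slope over stage order per subtype, with 6 residual degrees of freedom each. This scale understates changes of low genes. The fit was also run on simulated data with independent normal noise around stage means. The residual of the pooled values is instead the unevenness of subtype differences over stages, so that run does not vouch for the calls.

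The 6 genes and all lists were chosen with earlier results of these data known. Named genes are all members, up to 4 called genes per list by size of difference (E proteins, Id inhibitors, Prdm8 and Cdh11 in full), and the 3 most correlated genes per member; 2 genes of the lists are not reported here. Alternatives were a pseudocount of 0.1, no filter, a filter of 5 FPKM, median-ratio scaling, quantile normalization, and leaving out each stage, subtype or value. Promoters were matched by symbol to the RefSeq table of GRCm38.p6 (5 of 6 matched) and searched with Python 3.11.15.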

Additional observations from a re-analysis of the deposited data

Results flagged for a closer look

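The course of Neurod2 over stages differed between subtypes in a test of the difference itself. Its slope per stage step was lower in callosal than in corticothalamic neurons by -0.35 ± 0.06 on the log2 scale (limma adjusted p = 0.0495) and lower in subcerebral than in corticothalamic neurons by -0.59 ± 0.06 (limma adjusted p = 0.0197). In FPKM, corticothalamic neurons had 337 at E15 and 295 at P1, callosal neurons 429 and 188, and subcerebral neurons 351 and 94.6. Both calls rest on 4 pooled values per subtype and were lost when any stage was left out, and the first was lost in all 9 alternatives.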

How the results depend on the processing

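No paired analysis was possible because the table has 1 pooled column per group and none carries a replicate number; the planned replicate block was not run for that reason. Leaving out a value or stage leaves fewer residual degrees of freedom.

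Of the 20 member results called among 50, 7 were kept in every alternative: Bhlhe22 and Neurod1 callosal against corticothalamic, Bhlhe22 subcerebral against corticothalamic, Neurog2 callosal against both other subtypes, and Neurog2 and Neurod6 from E15 to P1. The other 13 were lost in some alternative. Of 47 called results of named list genes, 24 were kept in every alternative and 23 were lost in some. The cause of a lost call was not tested.

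Among these results, directions turned only where the main value was not called. With a pseudocount of 0.1 the slope difference of Neurog2 was 0.50 (callosal minus subcerebral) and 0.45 (callosal minus corticothalamic), and that of Neurod1 0.11 (callosal minus corticothalamic); with quantile normalization that of Bhlhe22 was -0.0063 (callosal minus corticothalamic). When stages, subtypes or values were left out, the slope difference between callosal and corticothalamic neurons ran from -0.32 to 0.37 for Bhlhe22, from -0.15 to 0.13 for Neurod1, from -0.11 to 0.011 for Neurod6 and from -0.20 to 0.066 for Neurog2. That between callosal and subcerebral neurons ran from -0.68 to 0.063 for Bhlhe22 and from -0.54 to 0.37 for Neurog2, and that between subcerebral and corticothalamic neurons from -0.31 to 0.34 for Neurog2. Differences ran from -0.35 to 0.10 for Neurod2 (callosal minus corticothalamic) and from -0.33 to 0.0068 for Neurog2 (subcerebral minus corticothalamic). Stage changes ran from -0.00031 to 0.70 (E16 minus E15) and from -0.032 to 0.29 (E18 minus E16) for Bhlhe22, from -0.30 to 0.28 for Neurod1 (E16 minus E15) and from -0.55 to 0.014 for Neurod2 (P1 minus E18). Id1 ran from -0.075 to 0.35 and Id4 from -0.27 to 0.16 (callosal minus subcerebral), and Id2 from -0.56 to 0.15 (callosal minus corticothalamic) and from -0.33 to 0.73 (P1 minus E15).

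Over all genes, 620 were called from E16 to E18, and 401 with no filter; the share of higher genes was 63.7%, and 46.8% with quantile normalization. Slope differences were called for 146 genes (callosal minus subcerebral; 84 with quantile normalization, and 47.3% higher against 57.8% with a pseudocount of 0.1), 125 (callosal minus corticothalamic; 80 with a filter of 5 FPKM) and 150 (subcerebral minus corticothalamic; 93 with that filter and 71 with quantile normalization). With stages, subtypes or values left out, calls ran from 1016 to 6179 (callosal minus subcerebral, 4093 in full), from 1868 to 5289 (callosal minus corticothalamic, 4361), from 251 to 6258 (subcerebral minus corticothalamic, 3835), from 6 to 1140 (E16 minus E15, 719), from 5 to 1877 (E18 minus E16), from 2257 to 6433 (P1 minus E18, 5609) and from 7676 to 9205 (P1 minus E15, 9400). Slope calls ran from 0 to 25 for subcerebral minus corticothalamic and were 0 for the others when a stage was left out, and both Neurod2 slope calls were lost there.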
